A study of Arabidopsis thaliana with 36 samples.

Results

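The response to 5 h of PSK was compared between roots and shoots of Arabidopsis tpst seedlings, gene by gene. The comparison used 12 of the 36 RNA-seq libraries of the series, 3 in each of 4 groups, chosen by their labels alone: tpst roots with 10 nM PSK for 5 h, untreated tpst roots, tpst shoots with 10 nM PSK for 5 h, and untreated tpst shoots. A gene's response is the log2 fold change of PSK-treated over untreated plants within a tissue, and the difference given below is the response in roots minus the response in shoots. A positive difference therefore holds both for a gene that rose more in roots and for a gene that fell more in shoots. The study grew seedlings in hydroponic culture to 11 days and sequenced shoots and roots separately, to find tissue-specific responses to the peptide. All 4 groups carry the tpst mutation in the Col-0 background, a single T-DNA allele, tpst-1. For the 5 h groups the medium was exchanged for fresh medium with PSK, while the untreated plants had no such exchange, so PSK and the exchange cannot be told apart. The hour of collection is not given in the sources used here. Seedlings were divided into roots and shoots, so root and shoot libraries may share plants. The p-values measure the spread between libraries, estimated from all 36 libraries of the series together.

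Phytosulfokine (PSK) is a short secreted peptide that must be sulfated on its tyrosines to be active. The enzyme is TPST, so tpst plants make no active PSK or other tyrosine-sulfated peptides, and added PSK acts on a background without its own signal. PSK is perceived at the cell surface by the leucine-rich repeat receptor kinases PSKR1 and PSKR2, and it is known for promoting cell expansion and root growth and for damping pattern-triggered immunity. Roots were in contact with the medium that held the peptide.

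The libraries held 22409693 to 28341564 counts, and 22303 of 32833 genes passed the filter on low counts. Levels are given as CPM, counts scaled to a common library total, after TMM scaling of all libraries together. TPST itself was at 9.96 to 14.4 CPM in the 15 tpst root libraries, against 23.7 to 24.9 CPM in 3 Col-0 root libraries. In shoots it was at 5.9 to 9.48 CPM in 15 tpst libraries and 17.1 to 20 CPM in 3 Col-0 libraries. The ranges did not overlap in either tissue. The tissue labels were checked with 40 photosynthesis genes and 22 root markers. The photosynthesis genes summed to 1102, 909 and 1491 CPM in PSK roots and to 589, 527 and 3284 CPM in untreated roots, against 77814, 66625 and 69166 CPM in PSK shoots and 63647, 67543 and 67690 CPM in untreated shoots. The root markers summed to 5336, 5509 and 6820 CPM in PSK roots and 6240, 5529 and 5315 CPM in untreated roots, against 1028, 1027 and 865 CPM in PSK shoots and 1177, 1085 and 1025 CPM in untreated shoots. Every library thus matched its tissue, and the third untreated root library stood apart by its photosynthesis transcripts, well above the other untreated root libraries. Among genes of at least 5 CPM, 260 were at least 2-fold higher in it than in both other untreated root libraries. In the third PSK root library 336 genes were at least 2-fold above both other libraries of that group. For many lists and genes, results are therefore also given without the third untreated root library. The third PSK root library is named for genes where it decides a call.

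**Figure D1:**
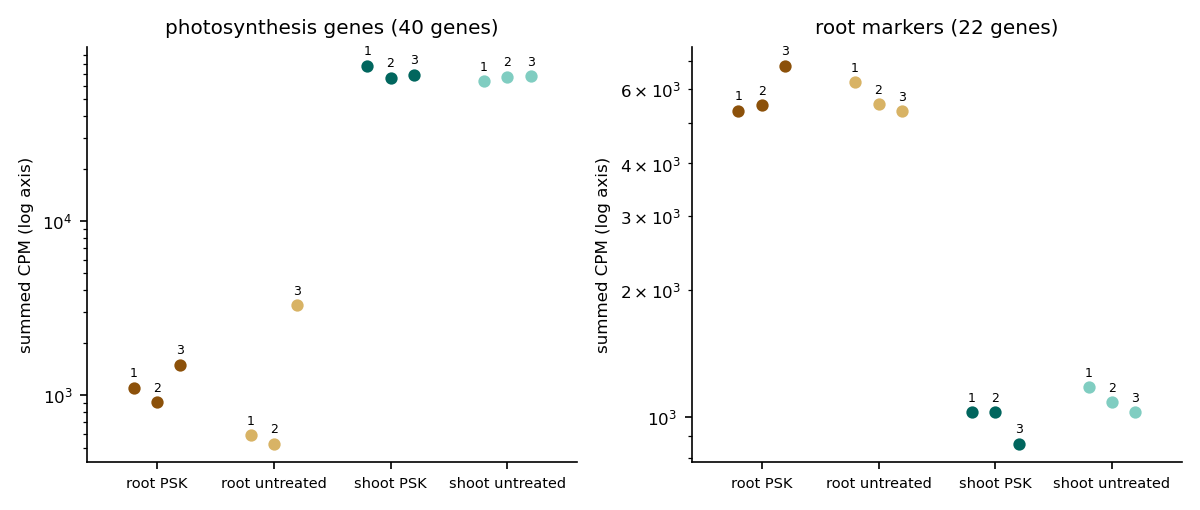
Summed level in CPM (log axis) of 40 photosynthesis genes (left) and 22 root markers (right) in each of the 12 libraries, with replicate numbers beside the points. The third untreated root library, at 3284 CPM of photosynthesis transcripts, lies above the other 5 root libraries, which reach 1491 CPM.

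The response differed between the tissues in both directions for similar numbers of genes. It was higher in roots for 838 genes (3.76% of those tested) and lower in roots for 840 (3.77%), together 1678 genes (7.52%), with a call set at a 2-fold change or more and an adjusted p below 0.05 in the quasi-likelihood test of edgeR. The response itself was called far more often in shoots. In roots 350 genes (1.57%) rose and 362 (1.62%) fell, together 3.19% of the genes tested, against 1757 (7.88%) that rose and 1979 (8.87%) that fell in shoots, together 16.8%. The count that fell in roots moved most with single libraries, at 184 without the second PSK root, 545 without the third PSK root and 188 without the third untreated root library. The median SE of a response was 0.16 in roots and 0.163 in shoots. Both tissues shared the estimate of the spread of each gene, so these SEs cannot compare the noise of the tissues. With each tissue fitted alone, 300 genes rose and 232 fell in roots, and 1606 rose and 1935 fell in shoots. The median difference over all genes was -0.011 on the log2 scale.

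Most of the called differences were changes of the shoot. Of the 838 genes with a higher response in roots, 695 fell in shoots and were not called in roots, and 31 rose in roots and were not called in shoots. Their median response was -0.185 in roots and -1.5 in shoots. Of the 840 genes with a lower response in roots, 591 rose in shoots and were not called in roots, 43 rose in both tissues but less in roots, and 86 fell in roots and were not called in shoots. The median response of these was 0.034 in roots and 1.59 in shoots. The response was larger in size in shoots for 92.8% of the first set and 83.1% of the second. Conversely, 339 genes were called in the same direction in both tissues, and for 286 of them the difference was not called.

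Without the third untreated root library, 897 genes were higher and 649 lower in roots, so that 58.0% of the calls were on the higher side, against 49.9% with it. Of the original calls, 736 of the higher and 609 of the lower ones were made again. Of the 86 genes that fell in roots and were not called in shoots, 22 kept the call of the difference, whereas 483 of the 591 genes that rose in shoots and were not called in roots did. Among the 231 lower calls that were lost, 52.8% were at least 10-fold more abundant in shoots than in the other 2 untreated root libraries, against 10.5% of the lower calls that were kept and 8.24% of all genes tested. The part of shoot tissue in that library was not tested. Levels under 1 CPM in both root groups were found for 180 of the lower and 54 of the higher calls, so a response in roots could be measured only loosely for these. Both shoot groups were under 1 CPM for 67 of the lower and 73 of the higher calls, and there the response in shoots was measured loosely.

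**Figure D2:**
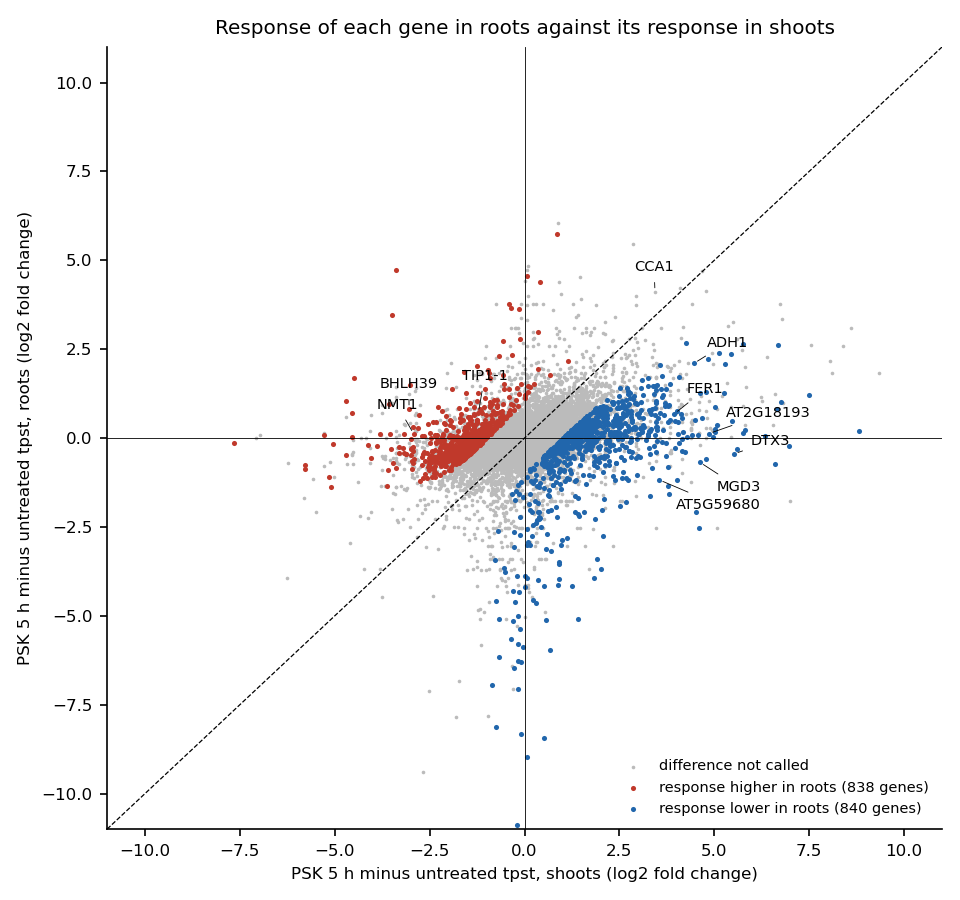
Response (log2 fold change of PSK 5 h over untreated tpst) of each of 22303 genes in roots (vertical) against shoots (horizontal), with called differences in red (838 genes higher in roots) and blue (840 lower). The dashed line marks equal responses, and most coloured points lie near the horizontal axis, where the change is in shoots.

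Of the 43 gene lists described here, the signals and regulators of iron deficiency had the largest share of members with a higher response in roots. Of 15 genes that signal or regulate the response to iron deficiency, 12 had a higher response in roots and 0 a lower one, with a median difference of 1.69 beside -0.01 over all genes tested. In shoots 11 of them fell and 0 rose, and in roots 1 fell. BHLH38, BHLH39 and BHLH100 encode closely related transcription factors of subgroup Ib that act with FIT to switch on iron uptake. BHLH39 had 18, 13.7 and 19.6 CPM in PSK roots and 9.4, 8.15 and 11.6 CPM in untreated roots, against 1.12, 1.04 and 1.71 CPM in PSK shoots and 8.52, 10.8 and 12.9 CPM in untreated shoots. The shoot level was thus between 1.04 and 1.71 CPM in every PSK library while the root level was at least 13.7 CPM. The response was 0.81 (SE 0.336) in roots and -3.04 (SE 0.419) in shoots, a difference of 3.86 (SE 0.538, adjusted p = 6.93e-06). BHLH100 had 9.11, 9.41 and 8.85 CPM in PSK roots and 9.23, 7.87 and 8.06 CPM in untreated roots, against 0.321, 1.13 and 0.572 CPM in PSK shoots and 7, 6.22 and 10.8 CPM in untreated shoots. Its difference was 3.66 (SE 0.692, adjusted p = 0.000293), and that of BHLH38 was 3.26 (SE 0.608, adjusted p = 0.000254).

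AT1G47400, a short gene without an annotated name counted here among the iron deficiency signals, had 5, 4.22 and 9.21 CPM in PSK roots and 9.23, 8.01 and 12.8 CPM in untreated roots, against 4.98, 3.6 and 3.69 CPM in PSK shoots and 37.8, 42.1 and 54.8 CPM in untreated shoots. Its shoot level fell in all 3 libraries, whereas the root groups differed less, and the difference was 2.75 (SE 0.449, adjusted p = 5.28e-05). ZIF1, a vacuolar transporter of the metal chelator nicotianamine, moved in the same sense. ZIF1 had 48.9, 48.3 and 48.4 CPM in PSK roots and 31.3, 32 and 44.2 CPM in untreated roots, against 51.7, 35.9 and 36.7 CPM in PSK shoots and 87.9, 95.4 and 111 CPM in untreated shoots. Its difference was 1.69 (SE 0.276, adjusted p = 5.44e-05). The genes of iron uptake proper gave no call with all libraries and the settings reported here. Among 10 genes of root iron uptake and coumarin synthesis, 0 were called higher and 0 lower, with a median difference of 0.06. F6'H1, which makes the coumarin scopoletin, fell in both tissues, with a response of -1.06 (SE 0.189) in roots and -1.58 (SE 0.219) in shoots and a difference of 0.52 (SE 0.287, adjusted p = 0.198). BGLU42, a glucosidase of coumarin secretion, lay at the fold limit with a difference of 1.00 (SE 0.18, adjusted p = 0.000174). With all libraries it was called under DESeq2, RLE scaling, TMM within each tissue and a block of shoot and root pairs. It was also called on the 12 libraries alone. It was called higher without PSK root library 1, untreated root libraries 2 and 3, PSK shoot libraries 1 and 2 or untreated shoot library 1 (range 0.85 to 1.12), and without the third untreated root library it was the only member of the 10 with a call.

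Of 3 ferritin genes, which serve iron storage, 1 rose in shoots and 0 in roots. FER1, a plastid ferritin that stores iron, had 116, 123 and 35.6 CPM in PSK roots and 54.5, 59.5 and 57.2 CPM in untreated roots, against 496, 780 and 475 CPM in PSK shoots and 38.6, 40.4 and 34.6 CPM in untreated shoots. All PSK shoot libraries were far above the untreated ones, while in PSK roots the third library lay below the untreated range and the other 2 above it. The response was 0.68 (SE 0.364) in roots and 3.95 (SE 0.406) in shoots, a difference of -3.27 (SE 0.526, adjusted p = 4.37e-05). The difference was called for this gene alone of the 3, and their median difference was -0.78.

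Most genes of DNA replication fell in shoots, and none was called in roots. Of 29 cell cycle and DNA replication genes, 14 had a higher response in roots and 0 a lower one, with a median response of -0.37 in roots and -1.30 in shoots and a median difference of 0.92. In shoots 20 fell, and in roots 0 fell or rose. Without the third untreated root library 12 had a higher response in roots and 0 a lower one. RNR1, the large subunit of ribonucleotide reductase, which makes deoxynucleotides, had 66.3, 58.4 and 74.1 CPM in PSK roots and 94.1, 96.1 and 99.2 CPM in untreated roots, against 37.1, 38.9 and 37.3 CPM in PSK shoots and 149, 144 and 137 CPM in untreated shoots. PSK libraries lay below the untreated ones in both tissues, by more in shoots. The response was -0.54 (SE 0.0726) in roots and -1.92 (SE 0.0754) in shoots, a difference of 1.38 (SE 0.103, adjusted p = 3.18e-10). TSO2, a small subunit of the same enzyme, had 58.3, 58.5 and 89.1 CPM in PSK roots and 93.4, 91.9 and 94.7 CPM in untreated roots, against 22.4, 32.6 and 33.4 CPM in PSK shoots and 188, 175 and 201 CPM in untreated shoots. Its difference of 2.23 (SE 0.236, adjusted p = 1.2e-07) was the widest of the 4 members named. MCM3 (1.21, SE 0.121, adjusted p = 4.49e-08) and MCM7 (1.36, SE 0.13, adjusted p = 2.54e-08), subunits of the helicase that opens replication origins, completed the members of smallest p.

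The promoter of RNR1 is shown because it carries 2 motifs known from growth genes, the telo box (AAACCCTA) and site II (TGGGCC or TGGGCT). The 250 bases before the gene start are chr2:9293011-9293260 of TAIR10, plus strand, read from the RefSeq genome TAIR10.1, with motif matches on either strand in capitals.
RNR1: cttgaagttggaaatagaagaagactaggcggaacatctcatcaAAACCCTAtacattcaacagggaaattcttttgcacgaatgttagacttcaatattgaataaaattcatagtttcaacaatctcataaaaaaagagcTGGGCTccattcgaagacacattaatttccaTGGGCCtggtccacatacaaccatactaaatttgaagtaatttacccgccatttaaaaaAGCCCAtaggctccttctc
It held 1 telo box and 3 site II matches. Site II was found in 11 of 29 cell cycle promoters, 19 of 28 ribosome biogenesis promoters and 130 of 193 ribosomal protein promoters, against 21.1% of all tested promoters of that length. Across all genes with a higher response in roots the share was 18.9%, and across those with a lower response 15.3%.

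Histones, which package new DNA, followed the same direction, with 6 of 42 core and linker histone genes higher in roots and 0 lower (median difference 0.54). In shoots 16 fell and in roots 0. HTR12, the centromeric histone H3, had 7.78, 7.13 and 10.2 CPM in PSK roots and 8.71, 9.42 and 10.1 CPM in untreated roots, against 2.89, 3.06 and 2.24 CPM in PSK shoots and 7.2, 7.59 and 7.8 CPM in untreated shoots. Its difference was 1.29 (SE 0.205, adjusted p = 3.69e-05). AT5G10390, a copy of histone H3, differed by 1.53 (SE 0.209, adjusted p = 5.36e-06). Many core histone genes are near-identical copies, so reads may be shared between them and single values of those are uncertain.

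Some ribosome biogenesis genes fell in shoots, and few ribosome genes had a called difference. Of 28 ribosome biogenesis genes 1 was called higher in roots and 0 lower, and 0 fell in roots and 11 in shoots, with a median response of -0.43 in roots and -0.83 in shoots. FIB2, a fibrillarin that methylates ribosomal RNA, had 189, 178 and 193 CPM in PSK roots and 281, 293 and 305 CPM in untreated roots, against 33.8, 43 and 36.4 CPM in PSK shoots and 213, 219 and 211 CPM in untreated shoots. All PSK libraries were below the untreated ones in both tissues. The response was -0.65 (SE 0.118) in roots and -2.50 (SE 0.126) in shoots, a difference of 1.85 (SE 0.169, adjusted p = 1.21e-08). Of 193 cytosolic ribosomal protein genes 1 fell in roots, and in shoots 22 fell and 4 rose, beside 8.87% and 7.88% over all genes tested. The medians were -0.22 in roots and -0.44 in shoots. The difference of 4 was called higher and of 2 lower (1 without the third untreated root library), beside 3.76% and 3.77% over all genes tested. AT3G06680, annotated as ribosomal protein L29 of the large subunit, had the smallest p among them, with a difference of 1.13 (SE 0.14, adjusted p = 1.35e-06). Ribosomal protein genes come in paralogous copies that may share reads.

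**Figure D3:**
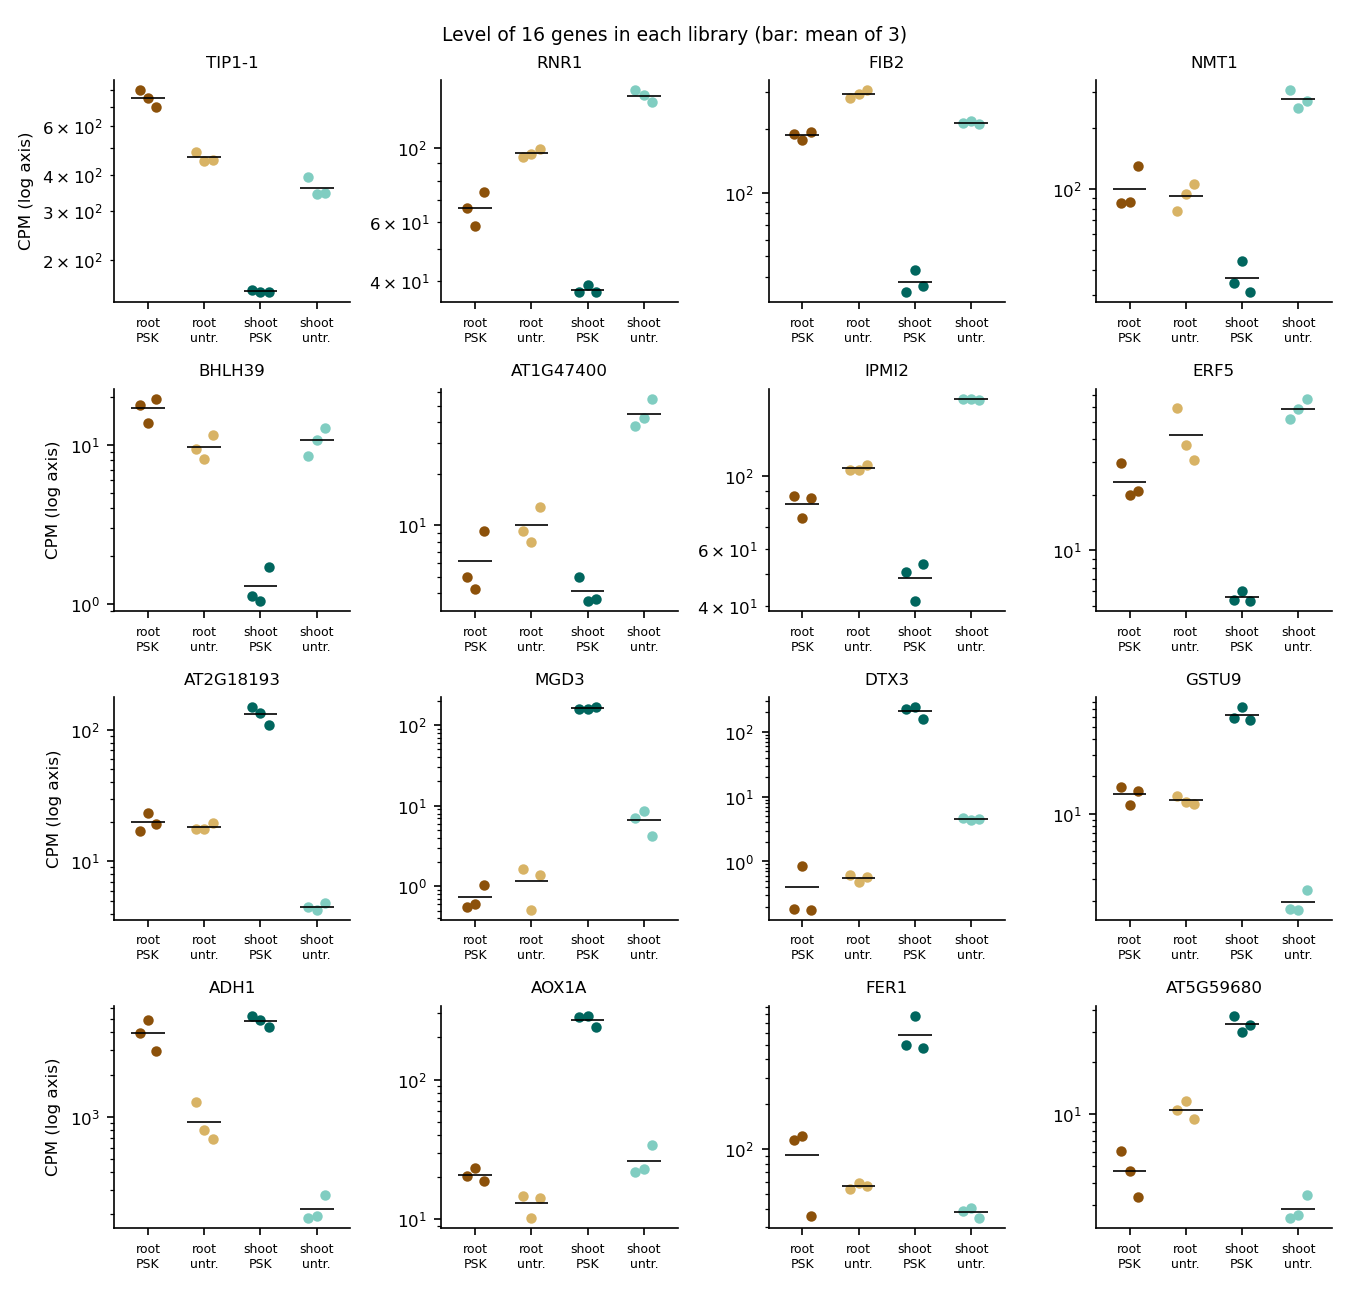
Level in CPM (log axis) of 16 genes in each library of the 4 groups, from left to right PSK roots, untreated roots, PSK shoots and untreated shoots (untr., untreated), with a bar at the mean of 3. In the upper 8 panels PSK shoots are the lowest or among the lowest values, and in the lower 8 they have the highest mean. For ADH1 a PSK root library at 4946 CPM lies within the range of PSK shoots. The 2 root groups differ by less than the 2 shoot groups.

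The gene with the smallest p among those higher in roots was TIP1-1, a water channel of the vacuolar membrane. TIP1-1 had 802, 753 and 699 CPM in PSK roots and 485, 450 and 454 CPM in untreated roots, against 157, 154 and 155 CPM in PSK shoots and 395, 344 and 346 CPM in untreated shoots. Its PSK libraries lay above the untreated ones in roots and below them in shoots. The response was 0.70 (SE 0.0896) in roots and -1.22 (SE 0.0908) in shoots, a difference of 1.92 (SE 0.127, adjusted p = 3.37e-11). TIP2-2, another tonoplast water channel, had 241, 213 and 234 CPM in PSK roots and 124, 127 and 112 CPM in untreated roots, with a difference of 1.24 (SE 0.211, adjusted p = 9.08e-05). Of 30 aquaporin genes 3 were called higher and 0 lower, beside 3.76% and 3.77% over all genes tested, with a median difference of 0.20.

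NMT1, the methyltransferase that makes phosphocholine for membrane lipids, had 84.8, 85.8 and 129 CPM in PSK roots and 78.2, 93.9 and 106 CPM in untreated roots, against 34.3, 44.2 and 31 CPM in PSK shoots and 306, 250 and 272 CPM in untreated shoots. The root groups overlapped and the shoot level fell in every PSK library. Its difference was 3.03 (SE 0.249, adjusted p = 2.01e-09). CDS1, which makes the phospholipid precursor CDP-diacylglycerol, had a difference of 1.42 (SE 0.13, adjusted p = 1.24e-08), with a response of -0.07 (SE 0.091) in roots and -1.49 (SE 0.0941) in shoots. NPSN11, a SNARE protein of membrane fusion, differed by 1.58 (SE 0.139, adjusted p = 6.28e-09). ORTH1, a ubiquitin ligase that binds methylated DNA, differed by 1.33 (SE 0.124, adjusted p = 1.67e-08), and AT5G63550, annotated as a DEK domain chromatin protein, by 1.29 (SE 0.114, adjusted p = 6.32e-09). In each of these 4 the root response was small, from -0.29 to -0.04, and the shoot response was a drop, from -1.87 to -1.37.

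Cell wall genes gave a partial pattern. Of 26 expansins, proteins that loosen walls, 4 were higher in roots and 1 lower (4 and 0 without the third untreated root library). EXPA13 had 25.7, 27.1 and 29 CPM in PSK roots and 31.5, 29.9 and 29 CPM in untreated roots, against 6.85, 9.05 and 10 CPM in PSK shoots and 21.5, 23.4 and 22.3 CPM in untreated shoots. Its difference was 1.23 (SE 0.143, adjusted p = 5.55e-07). EXPB3, a beta expansin, differed by 1.25 (SE 0.24, adjusted p = 0.000354). Of 29 xyloglucan endotransglucosylase genes, 2 were higher and 2 lower, and without the third untreated root library 2 and 0. XTH31 had 476, 459 and 433 CPM in PSK roots and 666, 713 and 597 CPM in untreated roots, against 23.9, 21 and 34 CPM in PSK shoots and 167, 160 and 120 CPM in untreated shoots. The difference of XTH31 was 1.97 (SE 0.218, adjusted p = 2.45e-07).

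Synthesis of aliphatic glucosinolates, methionine-derived defense compounds, fell in shoots in 12 of 21 members. Of 21 genes 6 were higher in roots and 0 lower, with a median response of -0.35 in roots and -1.48 in shoots, and 12 fell in shoots while 0 fell in roots. IPMI2, a subunit of the isomerase that lengthens the side chain, had 86.8, 74.2 and 85.4 CPM in PSK roots and 104, 104 and 108 CPM in untreated roots, against 50.7, 41.5 and 53.8 CPM in PSK shoots and 172, 172 and 170 CPM in untreated shoots. Untreated shoots were the highest of the 4 groups and PSK shoots the lowest. Its difference was 1.46 (SE 0.138, adjusted p = 1.95e-08). FMOGS-OX3, which oxidises the side chain, differed by 1.81 (SE 0.249, adjusted p = 5.79e-06), and BASS5, the plastid importer of the chain precursor, by 1.49 (SE 0.207, adjusted p = 6.46e-06). In the indole glucosinolate and camalexin list 2 of 21 were higher and 0 lower. Both of these, IGMT5 (1.51, SE 0.346, adjusted p = 0.00208) and CYP79B2 (1.65, SE 0.447, adjusted p = 0.008), lost the call without the third PSK root library, where their values were 0.89 and 0.96. CYP79B2, which starts the pathway from tryptophan, had 119, 117 and 338 CPM in PSK roots.

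Ethylene genes and immunity markers gave calls of a fall in both tissues, more of them in shoots, and few called differences. Of 20 ethylene genes 10 fell and 2 rose in shoots and 4 fell in roots. For 3 the response was higher in roots, none of which was called in roots. ERF5, a transcription factor of ethylene and defense responses, had 29.7, 20 and 20.9 CPM in PSK roots and 59.3, 37.1 and 30.9 CPM in untreated roots, against 5.4, 6.04 and 5.32 CPM in PSK shoots and 51.5, 58.3 and 66.5 CPM in untreated shoots. The untreated groups of both tissues overlapped in level, and PSK shoots were the lowest group. The response was -0.85 (SE 0.312) in roots and -3.39 (SE 0.355) in shoots, a difference of 2.54 (SE 0.464, adjusted p = 0.000199). ERF4, a repressor of ethylene-responsive genes, differed by 1.41 (SE 0.276, adjusted p = 0.000424). ACS7, an enzyme of ethylene synthesis, fell in shoots only by the call, with a difference of 3.30 (SE 0.819, adjusted p = 0.00401).

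Of 34 markers of pattern-triggered immunity 16 fell in shoots and 8 in roots, and none rose in either tissue. The difference was called higher in roots for 5 and lower for 1, with a median of 0.43. Without the third untreated root library 1 was higher and 1 lower. FOX1, a berberine bridge enzyme induced in defense, was the member that was lower. FOX1 had 0.889, 1.27 and 1.16 CPM in PSK roots and 5.06, 2.58 and 2.52 CPM in untreated roots, against 17.4, 17.3 and 23.7 CPM in PSK shoots and 11.2, 10.7 and 16.4 CPM in untreated shoots. It fell in roots and was not called in shoots, a difference of -2.21 (SE 0.62, adjusted p = 0.0101). ATL31, a ubiquitin ligase of carbon and nitrogen balance and defense, had 28.7, 22.9 and 22.2 CPM in PSK shoots and 57.1, 77.9 and 131 CPM in untreated shoots, with a difference of 1.44 (SE 0.452, adjusted p = 0.0207). That call was lost without the second PSK root, the second untreated root or the third untreated shoot library (range 1.05 to 1.68).

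Of 18 salicylic acid genes 2 were higher in roots and 0 lower. These were WRKY54 (1.77, SE 0.394, adjusted p = 0.00156) and WRKY70 (1.73, SE 0.431, adjusted p = 0.00408), a pair of related regulators of salicylic acid signaling. WRKY70 had 3.41, 4.76 and 6.82 CPM in PSK roots and 6.24, 5.29 and 6.24 CPM in untreated roots, against 32.7, 27.2 and 15.6 CPM in PSK shoots and 64.2, 102 and 131 CPM in untreated shoots. The PSK libraries of WRKY70 were all below the untreated ones in shoots and overlapped with them in roots. Over all 65 WRKY genes tested, 6 were higher in roots and 2 lower, and without the third untreated root library 3 and 2. The shares over all genes tested were 3.76% higher and 3.77% lower. WRKY25 was lower, with 88.6, 73.1 and 52.7 CPM in PSK shoots, 17.6, 24.9 and 33.1 CPM in untreated shoots and a difference of -1.44 (SE 0.252, adjusted p = 0.000117). WRKY63 rose in shoots and differed by -2.86 (SE 0.616, adjusted p = 0.00115), with only 25 counts summed over untreated shoots. Of 27 jasmonate genes 1 was higher and 1 lower, and without the third untreated root library 3 and 1. The higher one with all libraries, the storage protein gene VSP1, rested on 1 library. It had 5.22, 4.42 and 46.2 CPM in PSK roots and 6.31, 6.46 and 8.48 CPM in untreated roots, and its difference of 3.29 (SE 0.949, adjusted p = 0.0123) was 1.34 without the third PSK root library. The lower one, the jasmonate repressor JAZ3 (-1.28, SE 0.355, adjusted p = 0.00939), lost its call without the first PSK shoot library, at -0.95.

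A list of 12 defense genes that the study singled out on these samples, and that is therefore not independent, had 6 members that fell in roots and 7 that fell in shoots. The difference was called for 3 of them as higher in roots and 2 as lower (2 and 1 without the third untreated root library). WRKY40, a pathogen-induced repressor, fell in both tissues. WRKY40 had 8.74, 23.4 and 56.5 CPM in PSK roots and 90.8, 74.7 and 90.8 CPM in untreated roots, against 19.2, 33.8 and 27.3 CPM in PSK shoots and 61.1, 80.2 and 147 CPM in untreated shoots. Its difference was 0.31 (SE 0.682, adjusted p = 0.795). IOS1, a receptor kinase that primes immunity, likewise fell in both, with a difference of 0.48 (SE 0.339, adjusted p = 0.327). PME41, a pectin methylesterase, fell in both tissues and further in shoots (1.53, SE 0.481, adjusted p = 0.0209), and so did WRKY22 (1.33, SE 0.457, adjusted p = 0.0343). The call of PME41 was lost without PSK root library 3, untreated root library 1, PSK shoot library 1 or untreated shoot library 3 (range 1.08 to 1.84), and that of WRKY22 without PSK root library 3, untreated root libraries 2 and 3, PSK shoot libraries 1 and 3 or untreated shoot library 3 (range 1.07 to 1.53). FOX5, a relative of FOX1, differed by -1.56 (SE 0.554, adjusted p = 0.0407) and lost the call without PSK root libraries 1 and 2, untreated root libraries 1, 2 and 3, PSK shoot libraries 1 and 2 or untreated shoot libraries 1 and 2 (range -2.03 to -1.32). WRKY33 (1.16, SE 0.469, adjusted p = 0.0722), MLO12 (-0.89, SE 0.491, adjusted p = 0.2), PCR8 (-0.52, SE 0.343, adjusted p = 0.294), WRKY18 (0.83, SE 0.646, adjusted p = 0.384) and WRKY72 (-0.63, SE 0.544, adjusted p = 0.437) had no called difference. WRKY33 was called, however, without untreated shoot library 1 (range 0.74 to 1.44). It was also called with DESeq2 on 12 or 36 libraries and with a replicate block within tissue. MLO12 was called without untreated shoot library 3 (range -1.38 to -0.55) and with a block of shoot and root pairs.

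Phosphate starvation genes had the largest share of members with a lower response in roots among the 43 lists. Of 19 such genes 11 had a lower response in roots and 0 a higher one, with a median difference of -1.89. In shoots 11 rose, while in roots 0 rose and 1 fell. MGD2, MGD3 and SQD1 make the galactolipids and sulfolipids that replace phospholipids when phosphate is scarce. MGD3 had 0.555, 0.603 and 1.05 CPM in PSK roots and 1.63, 0.516 and 1.39 CPM in untreated roots, against 158, 159 and 166 CPM in PSK shoots and 7.05, 8.6 and 4.16 CPM in untreated shoots. PSK shoots were at or above 158 CPM, and every other library was at or below 8.6 CPM. The response was -0.68 (SE 0.551) in roots and 4.62 (SE 0.364) in shoots, a difference of -5.30 (SE 0.649, adjusted p = 1.22e-06). SQD1 had 23.9, 19.7 and 21.9 CPM in PSK roots and 18.8, 19.8 and 32.8 CPM in untreated roots, against 909, 752 and 713 CPM in PSK shoots and 217, 235 and 222 CPM in untreated shoots. The difference of SQD1 was -1.94 (SE 0.234, adjusted p = 1e-06), and that of MGD2 was -3.88 (SE 0.468, adjusted p = 1e-06).

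PLPZETA2, a phospholipase D that frees phosphate from membrane lipids, had 2.18, 1.88 and 1.78 CPM in PSK roots and 3.02, 1.79 and 3.14 CPM in untreated roots, against 106, 136 and 124 CPM in PSK shoots and 14, 12 and 10.7 CPM in untreated shoots. Root levels overlapped between the groups, and the difference was -3.76 (SE 0.411, adjusted p = 2.16e-07). Its promoter is shown for the P1BS motif (GNATATNC), the site known to be bound by the phosphate starvation regulator PHR1, which was added to the search after the values were seen. The 250 bases before the gene start are chr3:1634944-1635193, plus strand, from the same genome, with the P1BS match and a G box (CACGTG) in capitals.
PLPZETA2: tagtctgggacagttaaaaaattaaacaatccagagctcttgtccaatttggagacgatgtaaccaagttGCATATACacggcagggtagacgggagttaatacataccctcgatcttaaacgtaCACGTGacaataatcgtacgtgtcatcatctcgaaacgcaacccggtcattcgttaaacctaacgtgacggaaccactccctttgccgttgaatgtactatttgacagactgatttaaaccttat
P1BS was found in 6 of 19 promoters of the list, against 5.44% of all tested promoters, 6.81% of those with a lower response in roots and 5.25% of those with a higher one. A match describes the letters only.

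The core genes of the hypoxia response, which ferment sugar and save oxygen when oxygen is short, rose in part in both tissues. Of 18 genes 6 rose in roots, and 10 rose and 1 fell in shoots, with a median response of 0.55 in roots and 2.02 in shoots. The difference was lower in roots for 9 and higher for 0. ADH1, alcohol dehydrogenase of ethanol fermentation, had 3986, 4946 and 2933 CPM in PSK roots and 1265, 808 and 692 CPM in untreated roots, against 5244, 4912 and 4390 CPM in PSK shoots and 188, 194 and 277 CPM in untreated shoots. The PSK libraries of both tissues were at a like level, whereas the untreated shoots were lower than the untreated roots. The response was 2.10 (SE 0.214) in roots and 4.46 (SE 0.237) in shoots, a difference of -2.36 (SE 0.294, adjusted p = 1.45e-06). SUS1, a sucrose synthase, had 1325, 1541 and 781 CPM in PSK roots and 451, 350 and 280 CPM in untreated roots, against 2144, 1809 and 1536 CPM in PSK shoots and 127, 142 and 178 CPM in untreated shoots. Its difference was -1.86 (SE 0.292, adjusted p = 3.12e-05). AHB1, a non-symbiotic hemoglobin that scavenges nitric oxide, differed by -2.48 (SE 0.394, adjusted p = 3.7e-05), and PDC1, pyruvate decarboxylase, by -2.31 (SE 0.477, adjusted p = 0.000746).

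The mitochondrial dysfunction response, by which the nucleus answers failing mitochondria, gave more calls in shoots. Of 12 genes 7 rose in shoots and 1 in roots, and 5 had a lower response in roots while 0 had a higher one. These counts were 4 and 0 without the third untreated root library. AOX1A, the alternative oxidase that bypasses the respiratory chain, had 20.6, 23.4 and 18.7 CPM in PSK roots and 14.7, 10.2 and 14.3 CPM in untreated roots, against 281, 285 and 236 CPM in PSK shoots and 22, 23.1 and 33.8 CPM in untreated shoots. The level was higher in every PSK shoot library than in every untreated one, while the root response did not reach 2-fold. The response was 0.67 (SE 0.201) in roots and 3.34 (SE 0.209) in shoots, a difference of -2.67 (SE 0.282, adjusted p = 1.2e-07). ANAC13, a membrane-bound transcription factor that activates AOX1A, differed by -2.15 (SE 0.231, adjusted p = 1.54e-07). NDB4, an external NADH dehydrogenase, differed by -3.23 (SE 0.483, adjusted p = 1.71e-05), and AT2G21640 by -1.86 (SE 0.253, adjusted p = 4.83e-06).

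Families of detoxification genes lay on the lower side. Of 47 glutathione S-transferases 14 rose in shoots and 4 in roots, and 11 were lower in roots while 0 were higher. Without the third untreated root library 9 were lower and 0 higher. GSTU9 had 16.5, 11.7 and 15.2 CPM in PSK roots and 14, 12.4 and 12.1 CPM in untreated roots, against 59.7, 72.2 and 57.6 CPM in PSK shoots and 1.71, 1.69 and 2.41 CPM in untreated shoots. The difference of GSTU9 was -4.84 (SE 0.352, adjusted p = 2.04e-10), and the root groups overlapped. GSTU24 had 27.5, 38.7 and 25.8 CPM in PSK roots and 12.4, 12.7 and 10.5 CPM in untreated roots, against 154, 203 and 169 CPM in PSK shoots and 12.6, 13.2 and 17.8 CPM in untreated shoots. GSTU24 rose in both tissues, and its difference was -2.22 (SE 0.261, adjusted p = 6.95e-07). GSTU17 (-2.77, SE 0.375, adjusted p = 4.92e-06) and GSTU1 (-1.92, SE 0.307, adjusted p = 3.98e-05) followed. Of 90 UDP-glycosyltransferases, which attach sugars to small molecules, 24 rose and 3 fell in shoots and 4 rose in roots. The response was lower in roots for 8 and higher for 0, beside 3.77% and 3.76% over all genes tested. Without the third untreated root library 7 were lower and 0 higher. UGT73B3 had 23.2, 35.4 and 22.5 CPM in PSK roots and 13, 16 and 13 CPM in untreated roots, against 59.7, 54.3 and 43.7 CPM in PSK shoots and 5.88, 9.24 and 10.8 CPM in untreated shoots, a difference of -1.65 (SE 0.285, adjusted p = 0.000106). UGT90A2 differed by -2.46 (SE 0.638, adjusted p = 0.0058). It had 0.375, 2.03 and 3.08 CPM in PSK shoots and 0.196, 0.32 and 0.356 CPM in untreated shoots. It had 20 counts summed over untreated shoots, and its call was lost with edgeR on the 12 libraries alone. UGT73C5, a glucosyltransferase of brassinosteroids and fungal toxins, had a called difference of -4.45 (SE 1.04, adjusted p = 0.00247) that was 0.19 without the third untreated root library.

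Of 47 DETOXIFICATION genes, which encode exporters of the MATE family, 7 were lower in roots and 2 higher (6 and 1 without the third untreated root library). Shares over all genes tested were 3.77% lower and 3.76% higher. DTX3 had 0.185, 0.837 and 0.181 CPM in PSK roots and 0.624, 0.481 and 0.582 CPM in untreated roots, against 223, 238 and 159 CPM in PSK shoots and 4.6, 4.39 and 4.51 CPM in untreated shoots. It stayed under 1 CPM in every root library and rose in shoots, a difference of -5.96 (SE 0.668, adjusted p = 3.06e-07). DTX1 had 0.667, 0.335 and 0.435 CPM in PSK roots and 0.347, 0.309 and 0.873 CPM in untreated roots, against 336, 362 and 280 CPM in PSK shoots and 19.8, 26.4 and 33 CPM in untreated shoots. The difference of DTX1 was -3.75 (SE 0.511, adjusted p = 5.34e-06). DTX4 differed by -5.13 (SE 0.916, adjusted p = 0.000156). DTX1, DTX3 and DTX4 lie close together on chromosome 2 and related in sequence, so their reads may be shared in part. DTX27 on chromosome 5 differed by -1.25 (SE 0.172, adjusted p = 5.78e-06). ABCB4, an ATP-driven auxin transporter, had 123, 137 and 151 CPM in PSK roots and 127, 138 and 117 CPM in untreated roots, against 287, 372 and 273 CPM in PSK shoots and 18.6, 20.9 and 17.2 CPM in untreated shoots. Its difference was -3.93 (SE 0.274, adjusted p = 8.64e-11).

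AT2G18193 had the smallest p among the genes lower in roots. AT2G18193, annotated as an AAA-ATPase, had 17.1, 23.3 and 19.1 CPM in PSK roots and 17.5, 17.5 and 19.6 CPM in untreated roots, against 148, 135 and 109 CPM in PSK shoots and 4.46, 4.3 and 4.79 CPM in untreated shoots. The root groups overlapped, and the shoot level rose in each PSK library, a difference of -4.73 (SE 0.307, adjusted p = 3.37e-11). Its neighbour and relative AT2G18190 had 5 counts summed over the 3 PSK root libraries and 9 over the untreated ones, against 11.6, 11.1 and 4.75 CPM in PSK shoots and 0.245, 0 and 0.0396 CPM in untreated shoots, a fitted difference of -7.33 (SE 1.59, adjusted p = 0.00139) that was -11.10 without the first PSK root library. AT5G55150, a putative F-box gene, was at or below 0.167 CPM in all root libraries and had 9.74, 9.59 and 9.89 CPM in PSK shoots and 0, 0.0457 and 0.158 CPM in untreated shoots, a fitted difference of -7.18 (SE 1.09, adjusted p = 2.07e-05). AT5G24640 had a fitted difference of -5.84 (SE 1.06, adjusted p = 0.000197). It had 16 counts summed over untreated roots and 15 over untreated shoots, and the value was -4.52 without the third untreated root library. PKS3, a phytochrome kinase substrate, had 0 counts in PSK roots and 4 in untreated roots, so no fold is given for roots, and 4.23, 5.9 and 6.02 CPM in PSK shoots against 1.91, 1.28 and 1.11 CPM in untreated shoots, and its call was lost without untreated root library 1. ELIP2, an early light-induced protein of the chloroplast, differed by -3.89 (SE 0.296, adjusted p = 4.04e-10), and AT5G54100, known as SLP2, a stomatin-like protein, by -1.99 (SE 0.132, adjusted p = 3.37e-11). AT5G64230, of unknown function, differed by -2.97 (SE 0.223, adjusted p = 3.18e-10). FBA8, a cytosolic aldolase of glycolysis, had 1470, 1466 and 1562 CPM in PSK roots and 1827, 1865 and 1697 CPM in untreated roots, against 1491, 1528 and 1490 CPM in PSK shoots and 796, 814 and 800 CPM in untreated shoots. Its difference was -1.16 (SE 0.0765, adjusted p = 3.37e-11), a modest change measured with a narrow error, with PSK below untreated libraries in roots and above them in shoots.

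Of the genes with the largest positive differences, AT1G23340 had 6.63, 7.94 and 10.2 CPM in PSK roots and 8.01, 10.1 and 10.3 CPM in untreated roots, against 0, 0 and 0.22 CPM in PSK shoots and 2.25, 1.6 and 0.594 CPM in untreated shoots, a fitted difference of 3.94 (SE 0.723, adjusted p = 0.000209). That value rests on 5 counts in PSK shoots, all in the third library, and was 8.09 without it. AT1G13609, annotated as a defensin-like protein, had 4.37, 5.06 and 14.3 CPM in PSK roots and 7.98, 7.8 and 19.2 CPM in untreated roots, against 6.47, 5.54 and 5.58 CPM in PSK shoots and 83.4, 91.9 and 116 CPM in untreated shoots. Its difference was 3.49 (SE 0.556, adjusted p = 3.88e-05). NCED3, the enzyme that limits abscisic acid synthesis, had 1.11, 4.35 and 14.9 CPM in PSK roots and a difference of 3.44 (SE 1.08, adjusted p = 0.0205), which lost its call without the third PSK root, the first PSK shoot or the third untreated shoot library (range 2.14 to 3.94). FLA6, an arabinogalactan protein, had 2.85, 1.31 and 4.13 CPM in PSK roots and 9.37, 6.67 and 5.63 CPM in untreated roots, and in PSK shoots it had 1 count in all, so no fold is given. Its call was lost without PSK root library 3, PSK shoot libraries 1 and 2 or untreated shoot library 2.

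Cytokinin genes differed between the tissues mainly on the lower side. Of 20 genes 10 rose and 3 fell in shoots, 1 rose in roots, and 4 were lower and 1 higher in roots (median -0.72). Over all genes tested 7.88% rose and 8.87% fell in shoots, and 3.77% were lower and 3.76% higher in roots. CRF6, a cytokinin response factor, had 7.11, 6.87 and 6.71 CPM in PSK roots and 8.64, 6.57 and 7.73 CPM in untreated roots, against 42.3, 41.4 and 44 CPM in PSK shoots and 11.7, 12.9 and 12 CPM in untreated shoots. Its difference was -1.96 (SE 0.153, adjusted p = 7.31e-10). ARR8, a type-A response regulator that damps the signal, differed by -1.16 (SE 0.159, adjusted p = 5.77e-06), and CRF5 by -1.61 (SE 0.339, adjusted p = 0.000908). IPT5, an enzyme of cytokinin synthesis, was the one that was higher. It had 22.3, 17.9 and 21.3 CPM in PSK roots and 27.8, 29 and 27 CPM in untreated roots, against 0.535, 0.54 and 0.703 CPM in PSK shoots and 3.53, 2.56 and 1.86 CPM in untreated shoots, a difference of 1.68 (SE 0.381, adjusted p = 0.00184).

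Of 23 auxin genes 0 were higher and 2 lower in roots, beside 3.76% and 3.77% over all genes tested. Of the lower ones, AT1G14130 (-1.05, SE 0.195, adjusted p = 0.000232) lost its call without PSK root libraries 1 and 2 or untreated root library 3 (range -1.28 to -0.94). IAA14, a repressor of auxin response, was lower, with 18.2, 13.6 and 7.65 CPM in PSK shoots, 4.21, 4.67 and 3.8 CPM in untreated shoots and a difference of -1.81 (SE 0.471, adjusted p = 0.00583). Of 17 brassinosteroid and gibberellin genes 2 were higher and 1 lower. GA3OX1, which makes active gibberellin, had 12, 12.9 and 11 CPM in PSK roots and 7.98, 7.39 and 7.08 CPM in untreated roots, against 3.37, 8.06 and 11.2 CPM in PSK shoots and 15.4, 12.6 and 11.4 CPM in untreated shoots, a difference of 1.46 (SE 0.393, adjusted p = 0.0074). Of 27 abscisic acid and cold or drought genes 2 were higher and 2 lower (3 and 1 without the third untreated root library). HAB1, a phosphatase that represses abscisic acid signaling, had 42, 54.3 and 52.6 CPM in PSK roots and 30, 31.1 and 32.4 CPM in untreated roots, against 129, 125 and 120 CPM in PSK shoots and 32.9, 30 and 26.9 CPM in untreated shoots, a difference of -1.39 (SE 0.202, adjusted p = 1.26e-05). RD29A, a desiccation-induced protein, differed by 1.78 (SE 0.498, adjusted p = 0.00992) and lost its call without the third PSK root library (1.36). COR15B, a cold-induced chloroplast protein, had 1 count in PSK roots and 0, 0 and 2.85 CPM in untreated roots, so no fold is given for roots, and its fitted difference of -5.83 was 1.86 without the third untreated root library and its call was also lost without the third PSK root library.

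Nitrogen and sulfur genes were mixed. Of 22 nitrate genes 3 were higher and 3 lower in roots, beside 3.76% and 3.77% over all genes tested. UPM1, which makes the siroheme of nitrite and sulfite reductases, had 170, 191 and 190 CPM in PSK roots and 185, 161 and 166 CPM in untreated roots, against 1135, 1154 and 961 CPM in PSK shoots and 359, 396 and 484 CPM in untreated shoots. Its difference was -1.29 (SE 0.217, adjusted p = 7.79e-05). RFNR2 (-1.03, SE 0.167, adjusted p = 4.7e-05) and NIR1 (-1.03, SE 0.168, adjusted p = 5.24e-05), a ferredoxin reductase and the nitrite reductase of plastids, lay close to the fold limit and lost the call without PSK root libraries 1 and 2, PSK shoot library 2 or untreated shoot library 1 for RFNR2 (range -1.23 to -0.93) and without PSK root library 1 or untreated root library 1 for NIR1 (range -1.10 to -0.93). LBD37, a repressor of nitrogen-responsive genes, was higher (1.48, SE 0.32, adjusted p = 0.00117). Of 15 sulfate genes 3 were lower and 0 higher. SULTR1;2, the main sulfate importer of roots, had 26.2, 28.5 and 56.2 CPM in PSK roots and 94.2, 90.8 and 82.8 CPM in untreated roots, against 31.3, 31.3 and 24.7 CPM in PSK shoots and 25.5, 24.8 and 24.7 CPM in untreated shoots. It fell in roots and was not called in shoots, a difference of -1.49 (SE 0.325, adjusted p = 0.00129). APR2, which reduces activated sulfate, rose in shoots, with a difference of -1.28 (SE 0.289, adjusted p = 0.00181). Of 16 carbon starvation genes 2 were lower and 0 higher. Of the lower ones, SEN1 (-1.68, SE 0.485, adjusted p = 0.0123) lost its call without the third untreated root library, at -1.35. DIN9, a mannose phosphate isomerase, differed by -1.41 (SE 0.339, adjusted p = 0.0032).

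Of 22 flavonoid and anthocyanin genes 4 were lower in roots and 0 higher (median -0.65). CHS, chalcone synthase, the entry enzyme, had 557, 641 and 851 CPM in PSK roots and 924, 939 and 785 CPM in untreated roots, against 911, 818 and 892 CPM in PSK shoots and 486, 481 and 469 CPM in untreated shoots. The response was -0.37 (SE 0.137) in roots and 0.87 (SE 0.138) in shoots, and its difference of -1.24 (SE 0.194, adjusted p = 3.18e-05) joined 2 changes that were each under 2-fold. MYB111, a regulator of flavonols, had 1 count in PSK roots and 0, 0 and 0.841 CPM in untreated roots, so no fold is given for roots, and its fitted difference of -5.40 was 0.57 without the third untreated root library. Of 28 heat shock and folding genes 10 rose in shoots and 3 in roots, and 3 were lower and 1 higher in roots. With the third untreated root library left out, 2 were lower and 0 higher. Lower calls made up 3.77% and higher calls 3.76% of all genes tested with all libraries. HSP23.5, a small heat shock protein, had 4.55, 7.74 and 6.63 CPM in PSK roots and 5.55, 5.78 and 6.47 CPM in untreated roots, against 25.1, 33.3 and 25 CPM in PSK shoots and 6.81, 4.67 and 5.82 CPM in untreated shoots. Its difference was -2.18 (SE 0.39, adjusted p = 0.000157). HSP17.6C, of the same kind, differed by -3.09 (SE 0.844, adjusted p = 0.0084). It was at or below 1.44 CPM in all 12 libraries, with 8 counts summed over untreated shoots. Its call was lost under the stricter filter on low counts.

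Most dawn clock genes rose in both tissues, and none of them had a called difference. Of 13 clock genes that peak around dawn, 10 rose in roots, and 9 rose and 1 fell in shoots. The median responses were 2.12 in roots and 2.07 in shoots, and the difference was called higher for 0 and lower for 0. At an adjusted p under 0.05 without the fold limit, RVE4 (-0.63, SE 0.204, adjusted p = 0.0246) and RVE6 (-0.59, SE 0.199, adjusted p = 0.0308), both activators of evening genes, had the smallest p. RVE6 was at -0.38 (adjusted p = 0.152) without the third untreated root library, and RVE4 at -0.66 (adjusted p = 0.0329). Without the third untreated root library the median difference of the list was 0.40. Among 9 clock genes that peak around dusk, 1 was higher in roots and 0 lower. GI, GIGANTEA, which links the clock to flowering and light, had 4.07, 14.2 and 24.3 CPM in PSK roots and 20.3, 19.3 and 17.1 CPM in untreated roots, against 3.05, 5.86 and 6.2 CPM in PSK shoots and 58.5, 48.6 and 44.6 CPM in untreated shoots. PSK shoots were at or below 6.2 CPM, while the PSK root libraries spread from 4.07 to 24.3 CPM across the untreated range. The difference of GI was 2.90 (SE 0.537, adjusted p = 0.000236). The evening element (AAAATATCT) lay in 5 of 9 promoters of the dusk list, against 2.4% of all tested promoters, 2.51% of those higher in roots and 3.11% of those lower. The 250 bases before GI held no match to it or to the other motifs searched.

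The photosynthesis genes turned on 1 library. Of 40 genes 1 was called higher and 3 lower in roots, with a median difference of -0.04, and without the third untreated root library 22 were higher and 0 lower, with a median of 1.24. LHCB3, a light-harvesting protein of photosystem II, had 19.2, 18.1 and 37 CPM in PSK roots and 6.97, 5.67 and 52.1 CPM in untreated roots, against 198, 252 and 169 CPM in PSK shoots and 682, 681 and 742 CPM in untreated shoots. The third untreated root library had the highest root level and the other 2 the lowest. The difference was 1.96 (SE 0.628, adjusted p = 0.0237) and was 3.73 without that library, and the call was lost without PSK root library 3, untreated root libraries 1 and 2 or PSK shoot library 3 (lowest value 1.51). RBCS3B, a small subunit of Rubisco, had 7.81, 3.65 and 8.19 CPM in PSK roots and 5.03, 3.51 and 123 CPM in untreated roots, and its difference of -2.95 was 0.41 without it. SBPASE and GAPB, enzymes of the Calvin cycle, were at -1.44 and -1.22 with it and at -0.41 and -0.35 without it. Beside that library, the call was lost without PSK root libraries 1, 2 and 3, PSK shoot libraries 1 and 3 or untreated shoot libraries 1, 2 and 3 for RBCS3B, PSK root libraries 1 and 2, PSK shoot library 1 or untreated shoot library 1 for SBPASE and PSK root libraries 1 and 2, PSK shoot libraries 1 and 3 or untreated shoot libraries 1, 2 and 3 for GAPB (ranges -3.50 to 0.41, -1.78 to -0.41 and -1.54 to -0.35). Of 22 root markers 1 was higher and 0 lower, and of 25 Casparian strip and suberin genes 3 and 0.

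Opposite responses that were called in both tissues were rare. Fitted responses of opposite sign, called or not, were more common, at 287 of the 838 higher and 373 of the 840 lower calls. In all, 10 genes were called in opposite directions in the 2 tissues, and for each of the 10 the difference was called too. The 6 with the smallest p were AT5G59680, GAD4, HVA22B, WAKL5, ABCB15 and PP2A7. AT5G59680, annotated as a probable leucine-rich repeat receptor kinase, had 6.15, 4.66 and 3.3 CPM in PSK roots and 10.5, 11.9 and 9.41 CPM in untreated roots, against 36.9, 30 and 32.9 CPM in PSK shoots and 2.5, 2.61 and 3.4 CPM in untreated shoots. PSK roots were below untreated roots and PSK shoots above untreated shoots, with no overlap. The response was -1.17 (SE 0.293) in roots and 3.54 (SE 0.318) in shoots, a difference of -4.72 (SE 0.43, adjusted p = 1.21e-08). GAD4, a glutamate decarboxylase, had 3.93, 6.7 and 8.59 CPM in PSK roots and 11.8, 15.2 and 16.3 CPM in untreated roots, against 23.4, 34.1 and 35.9 CPM in PSK shoots and 11, 11.2 and 14 CPM in untreated shoots. The difference of GAD4 was -2.54 (SE 0.317, adjusted p = 1.5e-06). ABCB15, an ABC transporter, rose in roots and fell in shoots. ABCB15 had 15.7, 16.2 and 9.79 CPM in PSK roots and 6.17, 7.77 and 6.31 CPM in untreated roots, against 3.53, 4.91 and 6.33 CPM in PSK shoots and 12.5, 12.9 and 9.89 CPM in untreated shoots. Its difference was 2.29 (SE 0.471, adjusted p = 0.00073). WAKL5, a wall-associated kinase, differed by -3.80 (SE 0.741, adjusted p = 0.000408) with shoot levels under 1 CPM in all libraries. PP2A7, of the phloem protein 2 family, differed by -4.05 (SE 0.953, adjusted p = 0.00258) and was at or below 2.26 CPM in all. HVA22B, related to a protein induced by abscisic acid, had 2 counts in untreated shoots, so its fitted difference is not a measured fold.

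The genes of the peptide pathway itself had no called difference between the tissues. Of 10 genes, for the precursors PSK1 to PSK5, the related peptide PSY1, the receptors PSKR1, PSKR2 and PSY1R, and TPST, 0 were called higher and 0 lower, with a median difference of -0.01. PSK4, a PSK precursor gene, had 42.1, 42 and 30.7 CPM in PSK roots and 31.1, 33.9 and 35.1 CPM in untreated roots, against 39.7, 29.7 and 20.5 CPM in PSK shoots and 11.2, 14.4 and 15.9 CPM in untreated shoots. It rose in shoots, and its difference was -0.91 (SE 0.284, adjusted p = 0.0203), past the p threshold but under 2-fold, and was -1.12 to -0.66 with 1 library left out. PSKR1, the main PSK receptor, had 35.5, 36.9 and 35.7 CPM in PSK roots and 45.3, 45.5 and 33.2 CPM in untreated roots, against 36.1, 38 and 33.9 CPM in PSK shoots and 30.4, 36.1 and 37.5 CPM in untreated shoots. The response was -0.20 (SE 0.119) in roots and 0.05 (SE 0.121) in shoots. PSKR2 had a difference of -0.12 (SE 0.182, adjusted p = 0.704), PSY1R of -0.00 (SE 0.167, adjusted p = 1) and TPST of -0.11 (SE 0.174, adjusted p = 0.7). PSK1 was at 12.4, 15.5 and 9.35 CPM in PSK roots and 19.1, 19.6 and 21.6 CPM in untreated roots and under 1 CPM in shoots, where it fell, with a difference of 0.57 (SE 0.527, adjusted p = 0.478). PSK2 (0.21, SE 0.697, adjusted p = 0.877), PSK3 (-0.01, SE 0.361, adjusted p = 0.997), PSK5 (0.44, SE 0.289, adjusted p = 0.296) and PSY1 (0.57, SE 0.252, adjusted p = 0.107) had no called difference.

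The other exposures share the untreated libraries with the 5 h comparison, so their values are set beside it with no test. The difference of TIP1-1 was 0.23, 0.72, 1.92 and 1.55 at 30 min, 2 h, 5 h and 11 days of PSK, with an SE of 0.126 to 0.127. That of RNR1 was 0.14, 0.59, 1.38 and 1.43 at 30 min, 2 h, 5 h and 11 days of PSK, with an SE of 0.102 to 0.103. Both genes had smaller differences at 30 min and 2 h than at 5 h and 11 days. For BHLH39 the values were 0.47, 3.46, 3.86 and 0.53 at 30 min, 2 h, 5 h and 11 days of PSK, with an SE of 0.475 to 0.545. For FER1 they were -0.32, -2.89, -3.27 and 0.32 at 30 min, 2 h, 5 h and 11 days of PSK, with an SE of 0.519 to 0.526. The differences of these iron genes were large at 2 h and 5 h and small at 30 min and 11 days. MGD3 had -0.94, -0.50, -5.30 and -3.90 at 30 min, 2 h, 5 h and 11 days of PSK, with an SE of 0.603 to 0.649. AT2G18193 had -0.74, -4.20, -4.73 and -3.64 at 30 min, 2 h, 5 h and 11 days of PSK, with an SE of 0.303 to 0.307. Of these, AT2G18193 had a difference near that of 5 h at 2 h, and MGD3 did not. ADH1 had -0.80, -1.07, -2.36 and -2.06 at 30 min, 2 h, 5 h and 11 days of PSK, with an SE of 0.291 to 0.294. ERF5 had 0.20, 0.95, 2.54 and 1.00 at 30 min, 2 h, 5 h and 11 days of PSK, with an SE of 0.439 to 0.464, with its highest value at 5 h.

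**Figure D4:**
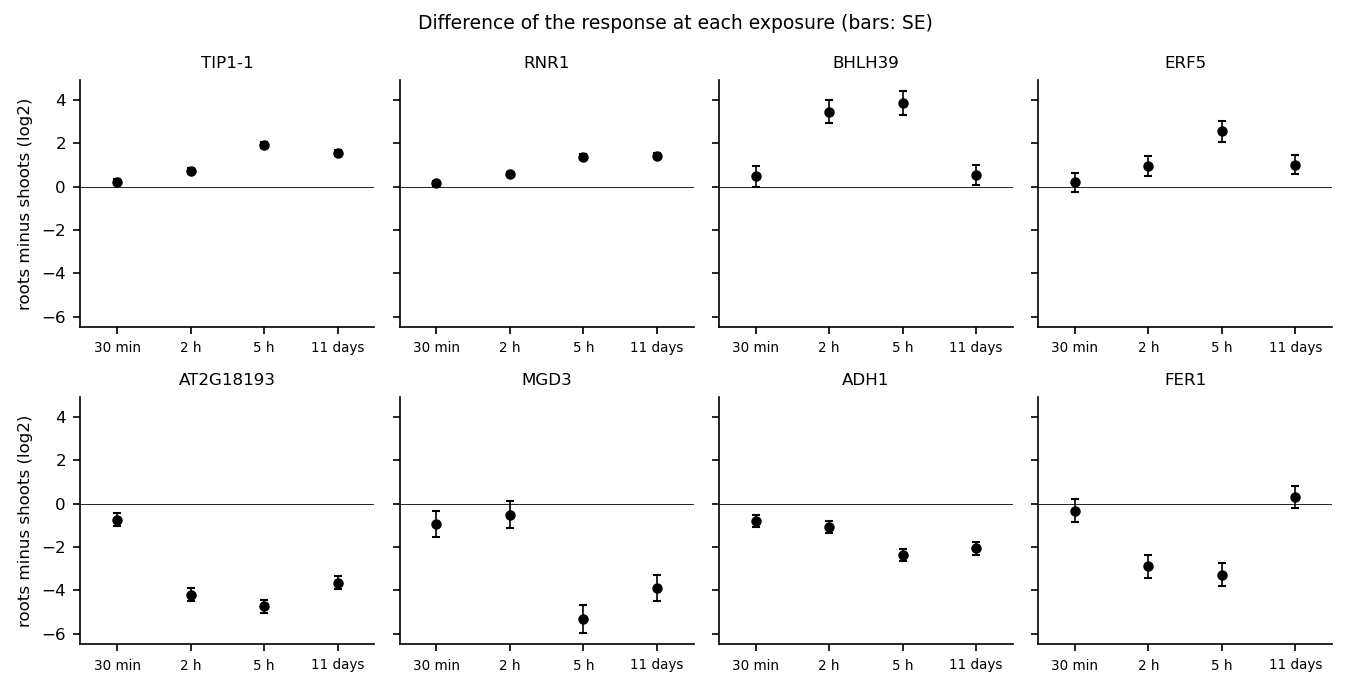
Difference of the response (roots minus shoots, log2, with SE bars) of 8 genes after 30 min, 2 h, 5 h and 11 days of PSK, each against the same untreated libraries. BHLH39 and FER1 are far from 0 at 2 h and 5 h only, whereas MGD3 is far from 0 at 5 h and 11 days.

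Over all genes the motifs were spread as follows. The W box letters TTGACC or TTGACT lay within 250 bases before 33.3% of the genes lower in roots and 25.3% of those higher, against 28.5% of 22211 tested genes. The G box was found in 9.55% of the genes higher in roots, 6.21% of those lower and 7.11% of those tested. For the telo box the shares were 3.1%, 2.63% and 3.65%. These shares describe letters in a window and were not tested.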

How the data were processed

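RNA was sequenced from 36 poly(A) libraries, 12 groups of 3. The authors trimmed reads with fastp, aligned them with HISAT2 2.0.5 to TAIR10 and counted them per gene with featureCounts 1.5.0-p3. The deposited whole-number counts were used as given, and the deposited FPKM table was not used. All 36 libraries, of 21559655 to 36921510 counts, were fitted together with edgeR 4.0.16 in R 4.3.3 (TMM, filterByExpr with a minimum of 10 counts, glmQLFit and glmQLFTest), with 1 mean per group and no block. The Benjamini-Hochberg adjustment ran over all 22303 genes tested, and a call needed a 2-fold change or more with an adjusted p below 0.05. SE was the size of the log2 change over the root of its F. A library's CPM was computed with its TMM factor.

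The members and the 43 gene lists were chosen with earlier results of these data known. Genes were named as the 8 of smallest p in each direction at 5 CPM or more, the 6 of largest difference in each direction whose call held without the third untreated root library, up to 4 called members of each list (or 2 uncalled), up to 6 genes called in opposite directions, and all members of the lists of the PSK pathway and of the study's defense genes. Some genes that this rule names are not reported here. Alternatives were RLE scaling, TMM within each tissue, other filters, nuclear genes alone, replicate blocks, DESeq2 1.42.0, fits on fewer libraries, no fold minimum, and each of the 12 libraries left out. The code was tested on simulated data. Promoter letters came from the RefSeq genome TAIR10.1, in which 32520 of 32548 nuclear genes had the coordinates of the count table. Figures were drawn with matplotlib 3.10.9 in Python 3.11.15. No 2 libraries of a group agreed within counting noise.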

Additional observations from a re-analysis of the deposited data

Results flagged for a closer look

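The responses of roots and shoots differed, by the test of the difference itself, for 838 genes that were higher and 840 that were lower in roots. A further mark is a call in opposite directions in the 2 tissues, which 10 genes had, each also called in the difference. Among these, AT5G59680 differed by -4.72, GAD4 by -2.54, WAKL5 by -3.80 and PP2A7 by -4.05, all lower in roots, and ABCB15 by 2.29, higher in roots. HVA22B had 2 counts in untreated shoots, so its fitted value of -4.92, which was -7.80 without the second untreated shoot library, is not a measured fold.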

How the results depend on the processing

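With 3 libraries a group and a median SE of 0.231 for the difference, changes near 2-fold of genes at low counts could not be called with confidence. Of 138 counts of calls under the alternatives, 126 were within 1.5 times the reported one. Without a fold minimum the difference was called higher for 2746 and lower for 2424 genes, roots rose for 2048 and fell for 2292, and shoots rose for 5836 and fell for 5859. With edgeR on the 12 libraries alone 529 genes were lower in roots and 174 fell in roots, and with the 18 root libraries alone 232 fell. With 1 library left out, the higher calls ranged from 666 to 925, the lower ones from 649 to 933, and the genes that fell in roots from 184 to 545. DESeq2 on 36 libraries called 966 higher and 952 lower. Of 148 named genes with a call, 91 kept it throughout. Without the third untreated root library the sign turned for RBCS3B, COR15B, MYB111 and UGT73C5, whose values with 1 library left out ran from -3.50 to 0.41, -7.64 to 1.86, -7.21 to 0.57 and -5.65 to 0.19. The cause of these changes was not tested. With a replicate block within tissue 878 genes were higher and 895 lower in roots, 350 rose and 388 fell in roots, and 1740 rose and 2002 fell in shoots, and with a block of shoot and root pairs 799 were higher and 761 lower. Under the block of pairs the call was lost for SBPASE, RBCS3B, GAPB, WRKY11, VSP1, COR15B, MYB111, BR6OX1, WRKY22, EXPA3 and CRK4, while BGLU42 and MLO12 gained a call. Deviations of shoot and root libraries of a number correlated at 0.013 to 0.42 (median 0.149, against -0.0606 for other numbers), above 0.1 in 13 of 18 pairs. Deviations were taken from the mean of 3 libraries, so values for other numbers tend to be negative where those for the same number are positive. Whether such libraries share plants was not tested. Not every pair was above 0.1 and no source ties the numbers to the same seedlings, so the pairing was not adopted.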

Other observations

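Further gene families follow. Of 65 class III peroxidases tested of 72, 5 were higher and 3 lower in roots (median 0.23), beside 7.52% called in either direction over all genes. In shoots 16 fell and 3 rose, and in roots 5 fell and 1 rose. PER63 had 6.3, 6 and 6.82 CPM in PSK roots and 8.36, 8.35 and 7.05 CPM in untreated roots, against 0.696, 2.48 and 3.3 CPM in PSK shoots and 9.21, 6.72 and 6.96 CPM in untreated shoots, a difference of 1.48 (SE 0.346, adjusted p = 0.00243). PER43 was lower (-1.57, SE 0.409, adjusted p = 0.00603), at or below 2.73 CPM in all 12 libraries. Of 39 cysteine-rich receptor-like kinases 3 were lower and 0 higher (median -0.29), beside 3.77% and 3.76% over all genes tested. CRK36 had 16.4, 19.3 and 22.4 CPM in PSK shoots and 2.6, 4.89 and 7.44 CPM in untreated shoots, a difference of -2.25 (SE 0.498, adjusted p = 0.00149). Of 33 calmodulin-like calcium sensors 8 fell in shoots and 2 in roots, with 2 higher in roots and 0 lower. Over all genes tested 8.87% fell in shoots and 1.62% in roots, with 3.76% higher in roots and 3.77% lower. CML36 differed by 1.09 (SE 0.161, adjusted p = 1.38e-05). Of 9 light and shade regulators 0 were higher and 0 lower (1 and 0 without the third untreated root library), and PIF3, a transcription factor bound by phytochrome, differed by 0.74 (SE 0.232, adjusted p = 0.0215).

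The gene families were collected by name and the other lists by hand. In 19 of the 43 lists every member passed the filter on low counts. The most members left out was 16, in the UDP-glycosyltransferases (90 of 106 tested), and the 193 ribosomal protein genes are those tested of 205.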
